A study of Homo sapiens with 6 samples.

Results

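The 10 genes described here, measured in RL cells, are NR1D1, NR1D2, RORA, PER1, PER2, PER3, BHLHE40, DBP, TEF and NFIL3. RL is a human cell line from a B-cell lymphoma with the t(14;18) translocation. The genes encode REV-ERB receptors, PER proteins and output factors of the circadian clock. They were selected on the log2 fold change of NR1D2, which had the largest fall of the 18417 measured genes after treatment with LY317615, at -2.63, followed by HCAR3 at -2.54. Each of the 10 genes was measured by 1 probe set, the group of probes that reads a transcript on the array. Since this comparison led to the choice, the values of the 10 genes in it are given as a description, with no p-value for any of them. How many of them passed the threshold is given beside the share of all genes that did, and nothing is read from it.

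The series holds 3 arrays of RL cells given LY317615 for 48 h and 3 arrays of untreated RL cells with 48 h in their titles. LY317615, also called enzastaurin, was designed to inhibit the beta isoform of protein kinase C. The labels give its dose as 2.5 mM, a unit that could not be checked here, and name no vehicle for the untreated cells. All cells came from this line and were grown in serum; whether the replicates came from separate cultures is not stated, so errors and p-values cover the spread among these arrays alone, part of which may be technical.

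The circadian clock is a feedback loop of transcription that runs in most cells with a period of about a day. BMAL1 pairs with CLOCK or NPAS2 and binds E-boxes in the promoters of the PER and CRY genes, of the REV-ERB genes and of output factors. PER and CRY proteins then inhibit that pair, while REV-ERB proteins repress BMAL1 itself. Single cells of a culture can be out of phase with each other, and each culture was sampled at 1 time, so these arrays measure RNA levels and no rhythm. In a bulk sample, fewer cells that express a gene and less RNA in each of them cannot be told apart.

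Promoters of clock genes can carry short sequences through which clock factors act, and the matches found in these genes are shown. Promoter windows, from 250 bases before a transcription start to 50 after it, were taken from RefSeq (GRCh38.p14), which gave 14 windows for the 10 genes. They were searched on both strands for the E-box CACGTG, the related E-prime box CACGTT and the D-boxes TTATGTAA and TTACGTAA. No motif of this set contains another. An E-box or an E-prime box was in 7 of the 14 windows, against 12.2% of all 35116 windows in the table. These stretches hold an E-box in capitals:
NR1D2, second RefSeq start, chr3:23945954-23945983, plus strand: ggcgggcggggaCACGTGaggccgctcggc
NR1D2, second RefSeq start, chr3:23946004-23946033, plus strand: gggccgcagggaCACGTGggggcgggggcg
BHLHE40, chr3:4979187-4979216, plus strand: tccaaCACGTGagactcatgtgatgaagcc
PER1, chr17:8152560-8152589, minus strand: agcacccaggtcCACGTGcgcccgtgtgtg
TEF, first RefSeq start, chr22:41367248-41367277, plus strand: gcgcgacagctcCACGTGctgcagctggcg
TEF, second RefSeq start, chr22:41381737-41381766, plus strand: cacctggccccgCACGTGtctatcttatcc

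In PER2 and NR1D1 the related E-prime box was found, as CACGTT or as its reverse complement AACGTG (capitals):
PER2, chr2:238288790-238288819, minus strand: ggcgcgcgcggtCACGTTttccactatgtg
NR1D1, chr17:40100740-40100769, minus strand: gcgcaagagctcAACGTGccggctgttgga

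D-boxes, at which DBP, TEF and NFIL3 act, were found in 3 of the 10 genes and are shown in capitals, the one in NR1D2 being read from the opposite strand:
NR1D2, second RefSeq start, chr3:23945916-23945945, plus strand: gtgacgcggcaTTACATAAtgggcgctgag
PER2, chr2:238288595-238288624, minus strand: cccgctgcggcTTACGTAAccgccgccggc
PER3, first RefSeq start, chr1:7784103-7784132, plus strand: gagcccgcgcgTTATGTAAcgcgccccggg

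The E-box was in 7.26% of all windows, the E-prime box in 5.34%, TTATGTAA in 0.886% and TTACGTAA in 0.125%. The second start of NR1D2 had 2 E-boxes, 155 and 105 bases before the start, and a D-box 194 bases before it.

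None of these motifs was found in the windows of DBP, RORA and NFIL3. A match shows only that the letters are there, and the arrays measured no binding at any of them.

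The arrays were alike in overall signal, with median intensities of 60.0 to 61.4 in LY317615 arrays and 56.7 to 58.2 in untreated arrays. On the second principal component LY317615 replicate 3 lay at 15.8, away from LY317615 replicates 1 and 2 at -6.29 and -13.7. The 5 measured B-cell markers had probe sets at or above the 95.2nd percentile of untreated intensity. The medians for T-cell, NK-cell, myeloid and fibroblast markers were at the 22.6th, 27.8th, 24.4th and 36th percentile. Summed B-cell marker intensity was 6651 to 7325 in LY317615 arrays and 9579 to 10070 in untreated arrays. Of these markers MS4A1, CD79A, PAX5 and CD22 fell in limma at an adjusted p under 0.05, and CD79B had a log2 fold change of -0.015. At that threshold 21.4% of all genes were lower, and 47.6% of those in the brightest bin. The summed intensity of 4 T-cell markers was 110.9 to 129.6 in LY317615 arrays and 94.1 to 100.2 in untreated arrays, and that of 5 myeloid markers was 146.3 to 169.6 in LY317615 arrays and 115.7 to 128.4 in untreated arrays. The sums of 4 NK-cell markers, 146.8 to 183.5 with LY317615 and 151.4 to 160.9 in untreated cells, overlapped between the groups. So did those of 4 fibroblast markers, at 209.9 to 264.9 with LY317615 and 186.2 to 217.2 in untreated cells. CD3E, CD14, CSF1R and COL1A2 of these lists rose at the same threshold, as did 14.2% of all genes. In the 2 dimmest bins 6.73% and 18.1% of all genes were called higher. The part of these markers in the results below was not tested.

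Among the 10 clock genes, the arrays showed a graded picture after LY317615. NR1D2 was far lower, PER2 and BHLHE40 were lower by a smaller amount, and NR1D1 was lower by less again. PER1 was slightly lower in every treated array, and PER3, RORA, DBP, TEF and NFIL3 differed by less than the spread between arrays. None of the genes was higher in all treated arrays.

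**Figure D1:**
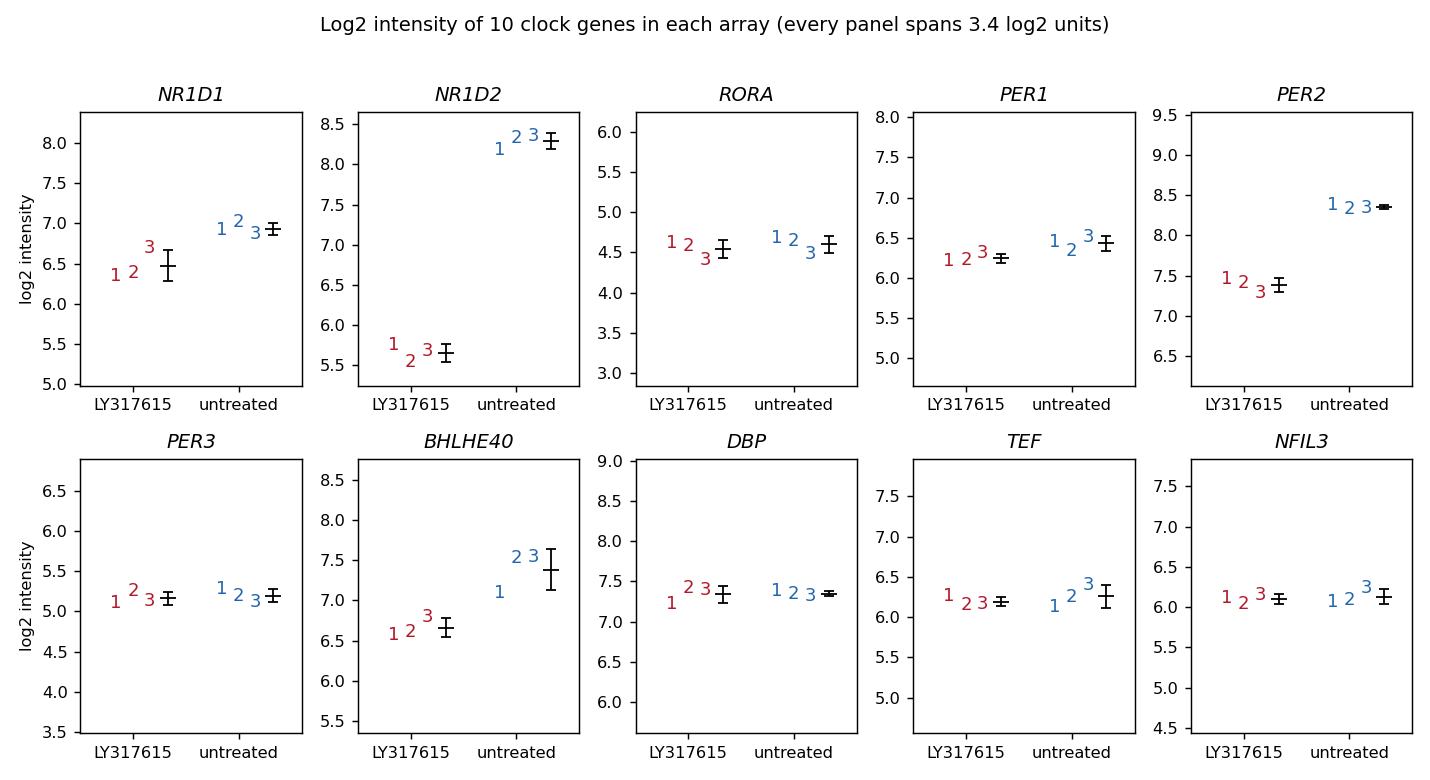
Log2 intensity (vertical axis, 3.4 log2 units in every panel) of the 10 clock genes in each array, with LY317615 arrays in red and untreated arrays in blue. Digits give the replicate and bars the mean ± SD of 3 arrays. The groups lie apart in NR1D2, by a mean of 2.63, and overlap in the 5 genes RORA, PER3, DBP, TEF and NFIL3.

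NR1D2 encodes REV-ERB beta, a nuclear receptor that binds haem and represses genes with ROR elements. Its probe set (8078272) had log2 intensities of 5.76, 5.54 and 5.68 in the LY317615 arrays, against 8.18, 8.33 and 8.36 in the untreated arrays. The groups were far apart, as the lowest untreated array lay 2.42 above the highest treated array. The means were 5.66 ± 0.11 and 8.29 ± 0.10 (SD, n = 3 each), which is 6.19-fold lower with LY317615. The log2 fold change was -2.63 ± 0.089 (SE), and it lay between -2.70 and -2.57 under every other processing and with any single array left out.

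NR1D1 encodes REV-ERB alpha, the close relative that shares these roles. It had log2 intensities of 6.35, 6.38 and 6.70 with LY317615, against 6.92, 7.02 and 6.87 in untreated cells. All treated arrays were below all untreated arrays, but LY317615 replicate 3 was nearer to the untreated ones than to the other treated arrays. The log2 fold change was -0.46 ± 0.10 (SE), a 1.37-fold lower mean, and it was -0.57 without LY317615 replicate 3. The change was smaller than that of NR1D2, a difference between the 2 genes that was not tested. In RefSeq each of the 10 genes overlaps another gene, and for 4 of them a protein-coding one: THRA for NR1D1, NKIRAS1 for NR1D2, SPHK2 for DBP and LOC100996598 for TEF. Whether these add signal to the probe sets was not tested.

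RORA encodes a nuclear receptor that activates from the same elements at which REV-ERB proteins repress. Its log2 intensities were 4.62, 4.59 and 4.41 with LY317615, against 4.67, 4.65 and 4.47 in untreated cells. The groups overlapped, with a log2 fold change of -0.058 ± 0.091 (SE), and of -0.17 after cyclic loess. The probe set was dim, at the 21.9th percentile of untreated intensity. No detection calls were at hand, and whether RORA RNA was above background was not tested.

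The PER genes encode the inhibitors that, with CRY proteins, hold back BMAL1 and its partner. PER2 had log2 intensities of 7.46, 7.40 and 7.28 with LY317615, against 8.38, 8.33 and 8.34 in untreated cells. It was the gene with the least spread among the 10, with a pooled SD of 0.068, and its groups lay well apart. Its log2 fold change was -0.97 ± 0.077 (SE), or 1.95-fold lower, and -0.84 after cyclic loess.

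PER1, which also responds quickly to hormones and cyclic AMP, had log2 intensities of 6.21, 6.22 and 6.31 with LY317615, against 6.45, 6.33 and 6.51 in untreated cells. All treated values were below all untreated ones, the nearest pair being 6.31 and 6.33. This gave a log2 fold change of -0.19 ± 0.079 (SE). It was -0.27 after cyclic loess and -0.25 with array medians set equal.

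PER3 had log2 intensities of 5.10, 5.26 and 5.13 with LY317615, against 5.28, 5.19 and 5.11 in untreated cells. These overlapped, with a log2 fold change of -0.032 ± 0.081 (SE), and -0.17 after cyclic loess. Among the PER genes the log2 fold change was thus -0.97 for PER2, -0.19 for PER1 and -0.032 for PER3, and the differences between them were not tested.

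**Figure D2:**
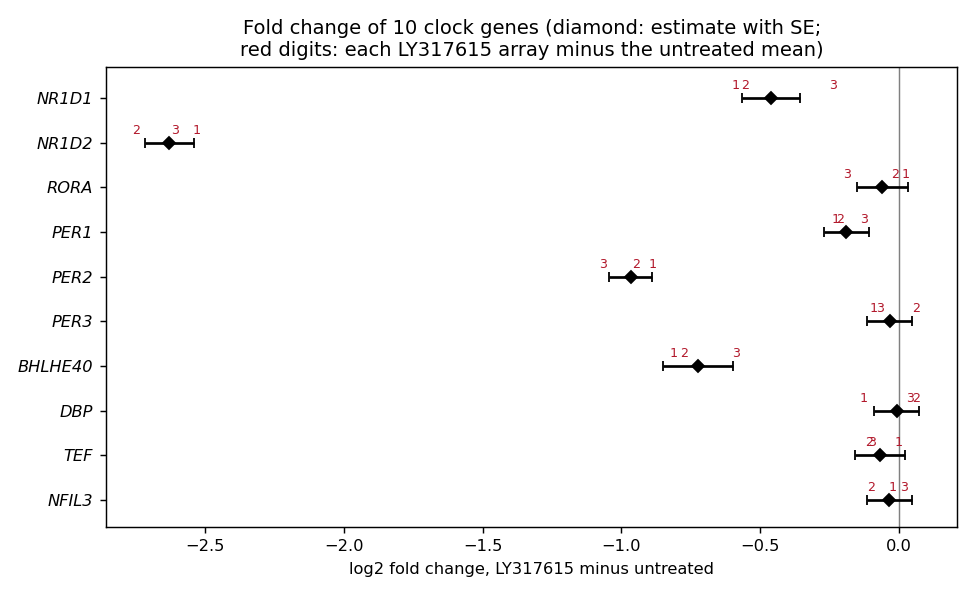
Log2 fold change of the 10 clock genes, LY317615 minus untreated (horizontal axis). Diamonds with bars are the estimates ± SE from 3 arrays a group, and red digits give each LY317615 array minus the untreated mean. NR1D2 stands at -2.63, PER2 at -0.97, BHLHE40 at -0.72 and NR1D1 at -0.46, and the other 6 genes lie between -0.19 and -0.0075.

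BHLHE40, also known as DEC1, encodes a repressor that binds E-boxes and so competes with BMAL1 and its partner. It had log2 intensities of 6.57, 6.61 and 6.80 with LY317615, against 7.09, 7.52 and 7.53 in untreated cells. The groups did not overlap, although untreated replicate 1 was well below the other untreated arrays. Its pooled SD of 0.20 was the largest of the 10 genes, at the 88.2nd percentile of all genes. The log2 fold change was -0.72 ± 0.13 (SE), or 1.65-fold lower, and -0.87 without untreated replicate 1.

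DBP, TEF and NFIL3 act on D-boxes, DBP and TEF as activators and NFIL3 as a repressor. DBP, whose RNA is among the most strongly cycling in many tissues, had log2 intensities of 7.22, 7.41 and 7.39 with LY317615, against 7.39, 7.35 and 7.32 in untreated cells. Its groups overlapped, with a log2 fold change of -0.0075 ± 0.080 (SE) and of 0.054 after cyclic loess. It was the smallest change of the 10 genes.

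TEF had log2 intensities of 6.26, 6.15 and 6.16 with LY317615, against 6.12, 6.25 and 6.40 in untreated cells. This gave a log2 fold change of -0.067 ± 0.090 (SE). NFIL3, which in mice is needed for the development of natural killer cells, had log2 intensities of 6.11, 6.03 and 6.15 with LY317615, against 6.06, 6.09 and 6.24 in untreated cells. Its log2 fold change was -0.034 ± 0.080 (SE), and -0.14 after cyclic loess. Both genes overlapped between the groups, and the sign of either estimate turned without untreated replicate 3, to 0.0049 for TEF and 0.021 for NFIL3.

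In limma with Benjamini-Hochberg adjustment over all genes, 4 of the 10 clock genes were below an adjusted p of 0.05, all lower with LY317615 (NR1D2, PER2, BHLHE40 and NR1D1), and 0 were higher. At an unadjusted p under 0.05 the counts were 5 lower and 0 higher, against 4681 lower and 3900 higher of all 18417 genes. At the adjusted threshold 35.7% of all genes passed, 21.4% lower and 14.2% higher. Treated and untreated arrays did not overlap in 5 of the 10 clock genes, all lower. Over all genes 49.8% had no overlap, 27.8% lower and 22% higher. The median log2 fold change was -0.13 over the 10 genes and 0.021 over all genes. Since NR1D2 was the reason for the choice, nothing is read from these counts. With array medians set equal, 1663 genes passed as higher and 4656 as lower, against 2622 and 3946 without it; 5 of the 10 genes were then below the threshold, all lower.

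Genes nearest to NR1D2 were found by the root mean square difference of log2 values over the 6 arrays. Each gene's untreated mean was first subtracted, so the distance mostly reflects the size of the fall, by which NR1D2 was selected. The nearest were HCAR3 (0.205), HBP1 (0.274), SPX (0.344), CCDC28A (0.399) and FBXO32 (0.430). By size of fall these genes ranked 2, 4, 3, 5 and 7 among all genes. Of the other clock genes, PER2 came nearest, at 1.18 and as the 209th gene by this distance. BHLHE40 followed at 1.36, as the 591st. Their ranks by size of fall were 212 and 596. DBP was the farthest of the 10, at 1.86.

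**Figure D3:**
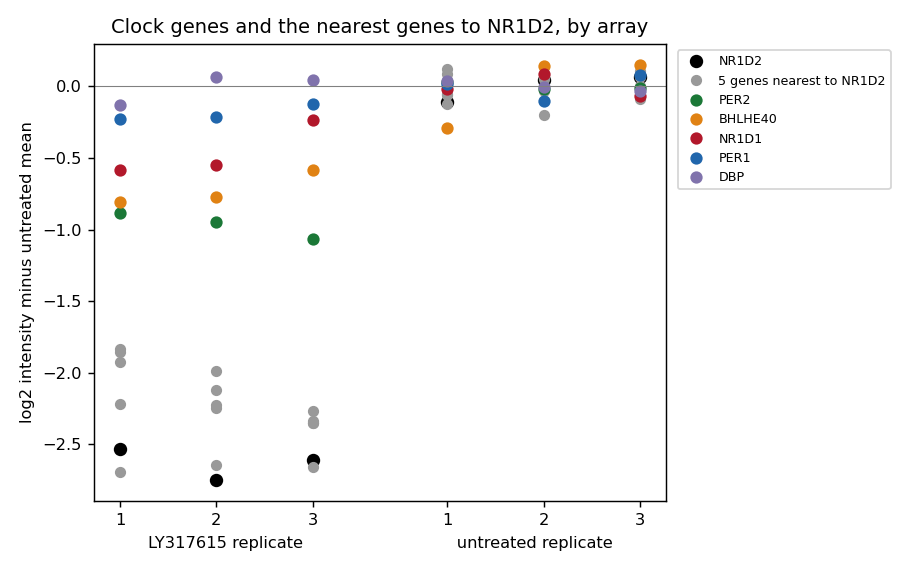
Log2 intensity minus the gene's untreated mean (vertical axis) in each LY317615 array and each untreated array (horizontal axis). Shown are NR1D2, the 5 genes nearest to it by root mean square difference (grey) and 5 other clock genes. The LY317615 points of PER2 lie between -1.07 and -0.89 and those of NR1D2 between -2.75 and -2.53.

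Of 12 other core clock genes listed, 11 were measured with a probe set of a single gene: 1 rose and 1 fell, which is 18.2% of them against 35.7% of all genes. The arrays did not overlap in 5 of the 11, 3 higher and 2 lower with LY317615. The same held for 49.8% of all genes, 22% higher and 27.8% lower. Of the 11 probe sets, 6 were in the 2 dimmest of 5 equal bins of intensity, where 6.73% and 18.1% of all genes were called higher and 2.36% and 4.7% lower. BMAL2, a relative of BMAL1, had log2 intensities of 5.98, 6.16 and 5.89 with LY317615, against 6.51, 6.36 and 6.63 in untreated cells. It fell by 0.49 ± 0.10 on the log2 scale (SE, limma adjusted p = 0.00551). NPAS2, a partner of BMAL1, rose by 0.23 ± 0.073 (limma adjusted p = 0.0354), with all treated arrays above all untreated ones. That call was lost with the replicate number as a block (adjusted p = 0.0622), with array medians set equal (0.134), after cyclic loess (0.283) and with a variance prior that follows intensity (0.111). It was also lost without any single untreated array (0.0794 to 0.102) and without LY317615 replicate 1 (0.0812) or 3 (0.0646).

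BMAL1 itself had log2 intensities of 3.84, 3.27 and 3.73 with LY317615, against 3.72, 3.77 and 3.48 in untreated cells. Its probe set was at the 8.80th percentile of untreated intensity, and that of CRY1 at the 8.96th, so these genes were among the dimmest of the array. CLOCK had a log2 fold change of 0.21 ± 0.080 (SE, limma adjusted p = 0.0663) and CRY2 of -0.17 ± 0.073 (limma adjusted p = 0.0948). RORB had one of 0.19 ± 0.084 (limma adjusted p = 0.114), with all treated arrays higher, and CRY1 one of 0.16 ± 0.098 (limma adjusted p = 0.220), with overlapping groups. TIMELESS, BHLHE41, CIART and HLF had log2 fold changes of -0.031, 0.014, -0.00125 and 0.090. The median over the 11 genes was 0.014.

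Among genes reported as REV-ERB targets in other cells, which REV-ERB represses, few were called. Of 15 listed, 13 were measured, 4 of them also core clock genes (BMAL1, CLOCK, NPAS2 and CRY1). Among the 13 genes 2 rose and 0 fell in limma (3 and 0 at an unadjusted p under 0.05), which is 15.4% against 35.7% of all genes. At the unadjusted p 3900 of all 18417 genes rose and 4681 fell. The risen genes were NPAS2, given above, and MMP9, a matrix metalloprotease gene, which rose by 0.42 ± 0.13 (SE, limma adjusted p = 0.0342). The groups of MMP9 met at 4.83, so that they overlapped by less than the precision of the values shown. The list's median was 0.098. Of these 13 probe sets, 7 were in the dimmest of 5 equal bins of intensity, where 6.73% of all genes were called higher and 2.36% lower. MMP9 lost its call after cyclic loess (adjusted p = 0.0866), without untreated replicate 2 (0.0956) or 3 (0.0899) and without LY317615 replicate 1 (0.0957) or 3 (0.101). The 1 gene called was MMP9 with array medians set equal or without untreated replicate 1. In other settings it was a gene named after its values were seen: INSIG2 after cyclic loess, ELOVL3 without LY317615 replicate 1 and CLOCK without LY317615 replicate 3. Without untreated replicate 2 or 3 the count was 0 (4 and 2 genes at an unadjusted p under 0.05). Over all genes it was then 4609 and 4839 (7153 and 7399 at an unadjusted p under 0.05).

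REV-ERB proteins repress through corepressor complexes that hold the deacetylase HDAC3. Of 7 listed genes of these complexes and of the SIN3 complex, 5 were measured. In limma 3 fell and 0 rose (3 and 0 at an unadjusted p under 0.05), or 60% against 35.7% of all genes. At the unadjusted p 4681 of all 18417 genes fell and 3900 rose. The list's median was -0.28. TBL1X, a subunit of the NCoR complex, had log2 intensities of 7.83, 7.79 and 7.75 with LY317615, against 8.40, 8.43 and 8.39 in untreated cells, and fell by 0.62 ± 0.070 (SE, limma adjusted p = 0.000299). Its relative TBL1XR1 fell by 0.42 ± 0.072 (adjusted p = 0.00247), and had a log2 fold change of -0.22 after cyclic loess, where it was still called. The scaffold gene SIN3A fell by 0.28 ± 0.078 (adjusted p = 0.0209), which was not called after cyclic loess (adjusted p = 0.450) and without any single untreated array (0.0523 to 0.0711). HDAC3 had a log2 fold change of -0.061 (limma adjusted p = 0.549). Of the 5 probe sets, 3 were in the brightest of 5 equal bins of intensity and 2 in the next. In these bins 47.6% and 37% of all genes were called lower. After cyclic loess 1 of the 5 genes was higher and 2 were lower, and the median was -0.069. In that setting 2570 of all genes were higher and 2999 lower.

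Haem is the ligand of REV-ERB proteins, and genes of its synthesis and breakdown went both ways. Of 10 listed, 9 were measured. Of these 2 rose and 2 fell, or 44.4% against 35.7% of all genes, with a median of -0.036. Of the 9 probe sets, 2 were in the brightest of 5 equal bins of intensity and 4 in the next. In these bins 47.6% and 37% of all genes were called lower, and 9.47% and 12.5% higher. ALAD and UROS, enzymes of haem synthesis, rose. ALAD had log2 intensities of 6.37, 6.44 and 6.11 with LY317615, against 5.70, 5.72 and 5.76 in untreated cells, a rise of 0.58 ± 0.095 (SE, limma adjusted p = 0.00194). UROS rose by 0.49 ± 0.081 (adjusted p = 0.00193). HMOX1 and HMOX2, which encode haem oxygenases, fell. HMOX1 had log2 intensities of 7.76, 7.79 and 7.77 with LY317615, against 8.20, 8.41 and 8.29 in untreated cells, a fall of 0.52 ± 0.079 (adjusted p = 0.00127). HMOX2 fell by 0.30 ± 0.070 (adjusted p = 0.0105), which was not called after cyclic loess (adjusted p = 0.192). ALAS1, the first enzyme of the synthesis, had a log2 fold change of -0.036 (adjusted p = 0.738).

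**Figure D4:**
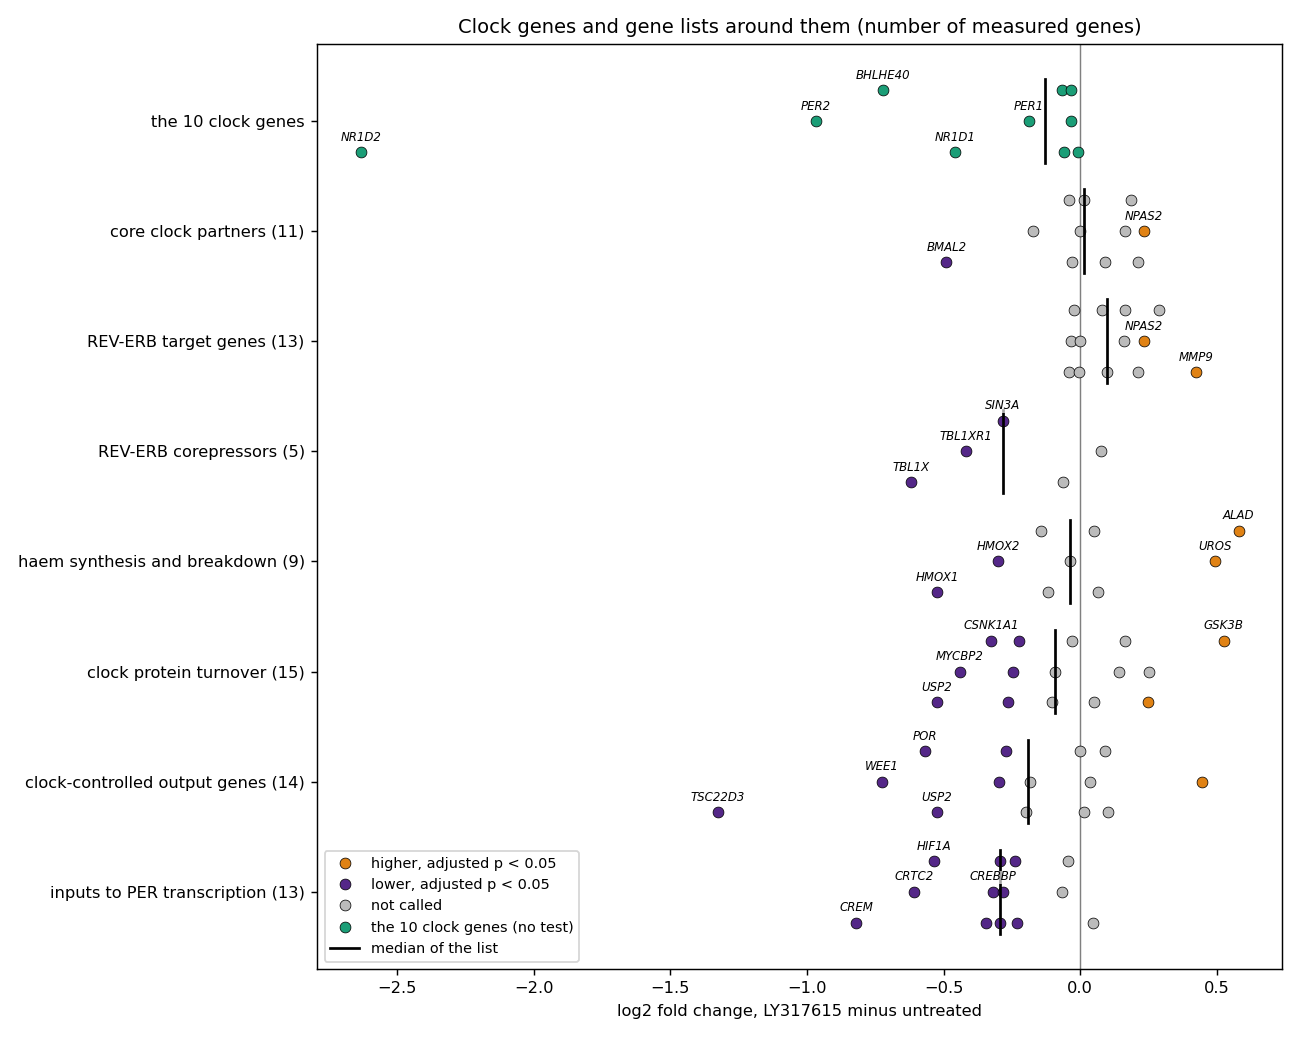
Log2 fold change, LY317615 minus untreated (horizontal axis), of the 10 clock genes (green, without test) and of the measured genes of 7 lists around them. Orange and purple points passed an adjusted p of 0.05 as higher or lower, grey points did not, and the black line is the median of each list, from -0.30 for inputs to PER transcription to 0.098 for REV-ERB targets.

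Clock proteins are marked by kinases and removed by ubiquitin ligases. Of 18 listed genes of this kind, 15 were measured; 6 fell and 2 rose, or 53.3% against 35.7% of all genes, with a median of -0.093. USP2, a deubiquitinase gene that is also a clock output, had log2 intensities of 7.78, 7.72 and 7.59 with LY317615, against 8.17, 8.22 and 8.28 in untreated cells, and fell by 0.52 ± 0.081 (SE, limma adjusted p = 0.00138). The ubiquitin ligase gene MYCBP2 fell by 0.44 ± 0.076 (adjusted p = 0.00243), with a log2 fold change of -0.22, still called, after cyclic loess. The casein kinase gene CSNK1A1 fell by 0.33 ± 0.069 (adjusted p = 0.00671), a call lost after cyclic loess (adjusted p = 0.193). GSK3B, whose kinase phosphorylates several clock proteins, rose by 0.52 ± 0.070 (adjusted p = 0.000679), and CSNK2A2, named after its value was seen, by 0.25 ± 0.082 (adjusted p = 0.0436). After cyclic loess the direction of the list turned, with 6 genes higher, 2 lower and a median of 0.072. In that setting 2570 of all genes were higher and 2999 lower. Of the 15 probe sets 10 were in the brightest of 5 equal bins of intensity, where 47.6% of all genes were called lower and 9.47% higher. The count of 8 became 5 without LY317615 replicate 1 or untreated replicate 1 and 4 without untreated replicate 2 or 3. The count over all genes, 6568 with every array, was 5794, 5205, 4609 and 4839 in these settings.

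Other genes known as outputs of the clock moved unequally. Of 15 listed, 14 were measured, 3 of them core clock genes and 1, USP2, given above. In this list 6 fell and 1 rose, or 50% against 35.7% of all genes, with a median of -0.19. Of the 14 probe sets, 4 were in the brightest of 5 equal bins of intensity and 4 in the next. In these bins 47.6% and 37% of all genes were called lower. TSC22D3, which encodes the glucocorticoid-induced protein GILZ, had log2 intensities of 8.90, 8.82 and 8.78 with LY317615, against 10.16, 10.14 and 10.18 in untreated cells. It fell by 1.33 ± 0.072 (SE, limma adjusted p = 1.6e-05). WEE1, the gene of a kinase that delays entry into mitosis, had log2 intensities of 8.64, 8.46 and 8.49 with LY317615, against 9.27, 9.22 and 9.27 in untreated cells, and fell by 0.72 ± 0.078 (adjusted p = 0.000241).

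POR, which encodes the reductase of cytochrome P450 enzymes, fell by 0.57 ± 0.099 (SE, limma adjusted p = 0.0026). The only gene of the list that rose was KLF9, named after its value was seen, at 0.45 ± 0.12 (adjusted p = 0.0214). NAMPT, an enzyme gene of NAD synthesis, had a log2 fold change of -0.18 (limma adjusted p = 0.0699). The count of 7 became 4, all lower, after cyclic loess, and 4 without untreated replicate 2 or 3. The count over all genes, 6568 in the first fit, was 5569, 4609 and 4839 in these settings.

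Factors that feed signals into PER transcription were mostly lower with LY317615. Of 16 listed, 13 were measured. In limma 10 fell and 0 rose (10 and 0 at an unadjusted p under 0.05), or 76.9% against 35.7% of all genes. At the unadjusted p 4681 of all 18417 genes fell and 3900 rose. The list's median was -0.30. CREM, a cyclic AMP-responsive factor gene, had log2 intensities of 6.35, 6.29 and 6.35 with LY317615, against 6.99, 7.22 and 7.24 in untreated cells, and fell by 0.82 ± 0.087 (SE, limma adjusted p = 0.000226). CRTC2, a coactivator of CREB, had log2 intensities of 7.49, 7.76 and 7.19 with LY317615, against 8.05, 8.11 and 8.10 in untreated cells, and fell by 0.61 ± 0.13 (adjusted p = 0.00671).

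HIF1A, the hypoxia factor gene whose product induces BHLHE40, fell by 0.54 ± 0.082 (SE, limma adjusted p = 0.00135), with a log2 fold change of -0.33, still called, after cyclic loess. The coactivator gene CREBBP fell by 0.32 ± 0.082 (adjusted p = 0.0162), a call lost after cyclic loess (adjusted p = 0.303) and without untreated replicate 2 (0.0573) or 3 (0.0663). Of the 13 probe sets, 11 were in the 2 brightest of 5 equal bins of intensity, where 37% and 47.6% of all genes were called lower. After cyclic loess 3 genes of the list were lower and 1 was higher, with a median of -0.10. In that setting 2999 of all genes were lower and 2570 higher. The count was 4 without untreated replicate 2 or 3. The count over all genes, 6568 with every array, was then 4609 and 4839.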

How the data were processed

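Values were deposited as linear-scale intensities for 33297 probe sets of Affymetrix Gene 1.0 ST arrays. The submitters' processing notes name GCOS 1.4, Affymetrix Expression Console and RMA. Their order, the step back from log2 and the build were not given in the sources used here. Log2 was taken with no added constant and no further scaling. Of the probe sets, 19460 had 1 gene symbol, 1754 several and 12083 none; the brightest of a gene was used. The 18417 genes were fitted together in limma 3.58.1 (R 4.3.3; lmFit, eBayes), two-sided, with Benjamini-Hochberg adjustment at 0.05, and the code was tested on simulated data. Other steps used Python 3.11.15, pandas 2.3.3 and matplotlib 3.10.9. Promoter windows came from RefSeq by symbol, for 10 of 10 genes. The genes and lists were chosen with earlier results of these data known. Named were the 10 clock genes, up to 4 genes a list by smallest adjusted p, and the 5 nearest to NR1D2; others are named to complete a list. There were no detection calls, and precision is limited by the number of arrays. Alternatives were a replicate block, leaving out each array, array medians set equal, cyclic loess, an intensity trend in the variance prior, dropping the 30% of genes with the dimmest values, averaging the probe sets of a gene, and an adjusted p of 0.01.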

Additional observations from a re-analysis of the deposited data

How the results depend on the processing

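The log2 fold changes of NR1D2, PER2, BHLHE40, NR1D1 and PER1 kept their sign under all 12 alternative settings for single genes. Those of PER3, NFIL3, TEF, DBP and RORA turned positive in 1 to 3 settings, by at most 0.054. Whether the replicate numbers pair the arrays could not be settled with 3 arrays a group. Deviations of same-numbered arrays from their group means correlated across genes at -0.017, 0.093 and 0.066. Those of differently numbered arrays correlated at -0.107 to 0.044. With the replicate block, 6548 genes were called, 1 core clock gene and 1 REV-ERB target. At an adjusted p of 0.01 the counts were 3586 for all genes, 1 for core clock genes, 4 for clock protein turnover, 0 for REV-ERB targets (3 at an unadjusted p under 0.05), 4 for clock outputs and 3 for inputs to PER. After cyclic loess they were 5569 for all genes, 1 for core clock genes, 1 for REV-ERB targets, 4 for clock outputs and 4 for inputs to PER. With an intensity trend they were 7160 for all genes, 1 for core clock genes and 1 for REV-ERB targets. With equal medians they were 6319 for all genes and 1 for REV-ERB targets. Without the dimmest genes only 4 REV-ERB targets were left, of which 1, CLOCK, was called, against 6862 of 12892 genes. Leaving out each array, which leaves fewer samples, gave 1 to 2 core clock genes, 4 to 6 of clock protein turnover, 0 to 2 REV-ERB targets, 4 to 7 clock outputs, 4 to 10 inputs to PER and 4609 to 6153 of all genes. The causes were not tested.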
